A study of Mus musculus with 12 samples.

Results

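The etoposide experiment compared primary neuron cultures of C57BL/6 mice that were treated with etoposide with cultures that received DMSO, the solvent of the drug. It held 6 of the 12 mRNA libraries of the series, 3 titled etoposide and 3 titled DMSO, all wild type and all collected at 10 days. Of the 17800 genes listed for these libraries, 12371 averaged 1 FPKM or more across the 6 libraries and were tested (FPKM is the fragment count scaled to transcript length and library total). The other libraries belong to a model with over-expression of H-Ras(G12V) by a virus and were not analysed here. The submitters set both treatments up as models of neuronal aging, etoposide as stress-induced premature senescence, and asked which pathways the models share. The drug's dose, the brain region and the age of the animals are not given in the sources used here, and neither is whether replicate libraries stem from different cultures or animals. P-values therefore describe the spread of these libraries alone, and that spread may be technical.

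The labels of the 6 libraries contradict each other. In all 6 the treatment tag names the opposite group to the title, while columns of the deposited table are named as in the title. Every direction below holds for the libraries titled etoposide.

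Etoposide is a topoisomerase II poison: it holds the enzyme on the DNA ends it has cut, so that the passage of DNA strands turns into a double-strand break. Topoisomerase II alpha (Top2a) serves dividing cells, and topoisomerase II beta (Top2b) is the form that postmitotic neurons use. Breaks activate the kinases ATM and ATR and through them the transcription factor p53, whose targets arrest the cell cycle (Cdkn1a), restrain p53 itself (Mdm2) or start apoptosis (Bbc3, Pmaip1). Neurons do not divide, but primary cultures of the brain also hold astrocytes, oligodendrocyte precursors and other cells that do.

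The etoposide libraries did not form 1 group. Etoposide libraries 1 and 2 stood apart from the DMSO libraries, and etoposide library 3 lay among them. Over the 12371 genes, the rank correlation of library 3 was 0.977, 0.979 and 0.931 with the 3 DMSO libraries in order, but 0.811 and 0.881 with etoposide libraries 1 and 2. Its median absolute difference from DMSO library 2 was 0.138 on the log2(FPKM + 1) scale, close to the 0.125 between DMSO libraries 1 and 2 and below the 0.377 and 0.415 between those libraries and DMSO library 3. Genes at least 1 log2 unit from the DMSO mean numbered 3603 in etoposide library 1, 2527 in library 2 and 278 in library 3, and 230 of those 278 were lower. The first principal component, with 70% of the variance, put etoposide libraries 1 and 2 at 80.5 and 55.2 and the other 4 libraries between -36.9 and -30.8. DMSO library 3 also differed from its group, with 966 genes at least 1 log2 unit from the mean of the other DMSO libraries. For this reason each result is given by library and, where it rests on etoposide library 3, with and without it. Leaving that library out was decided with its position known.

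With all 6 libraries, limma (two-sided, Benjamini-Hochberg adjustment at 0.05) called 56 genes lower in the etoposide libraries, 0.453% of the genes tested, and 0 genes higher, 0% of them. At an unadjusted p under 0.05 there were 918 genes higher and 806 lower, and the smallest adjusted p of a higher gene was 0.0656. Without etoposide library 3, 2259 genes were called higher (18.3%) and 1649 lower (13.3%), among them all 56. Every etoposide library was above every DMSO library for 945 genes (7.64%) and below every DMSO library for 1011 genes (8.17%). All 56 called genes were of the latter kind. They rest on few libraries a group: 21 of them remained called without DMSO library 1, 26 without DMSO library 2, 6 without etoposide library 2 (Sox10, Gpr17, Tmem255b, Ube2c, Ccnb1 and Pbk) and 4 without DMSO library 3 (Sox10, Gpr17, Tmem255b and Bcas1). All 56 stayed lower in each of these fits.

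Genes of oligodendrocyte precursors were among those called lower, and Gpr17 and Sox10 had the largest log2 changes of the 56. Sox10, the transcription factor that defines the oligodendrocyte lineage in the brain, was at 0.09, 0.14 and 0.01 FPKM in etoposide libraries 1, 2 and 3 and at 25.1, 18.8 and 25.4 FPKM in DMSO libraries 1, 2 and 3. Gpr17, a receptor of precursors that have begun to differentiate, was at 0.11, 0.05 and 0 FPKM against 27.8, 25.6 and 16.6 FPKM in the same order of libraries. Both genes were thus at or near 0 in every etoposide library, library 3 included, and the groups were far from overlapping. Sox10 fell by 4.47 on the log2(FPKM + 1) scale (SE 0.27, limma adjusted p = 0.000497) and Gpr17 fell by 4.499 (SE 0.29, limma adjusted p = 0.000497). Pdgfra, the growth factor receptor that marks oligodendrocyte precursors, was at 4.68, 1.64 and 3.59 FPKM in the etoposide libraries and 66.7, 51.1 and 35.0 FPKM in the DMSO libraries (log2 change -3.62, SE 0.37, limma adjusted p = 0.00437). Olig2, a transcription factor of the same lineage that some astrocytes also express, kept more of its level, with 22.8, 16.9 and 31.4 FPKM against 112, 91.5 and 133 FPKM (log2 change -2.22, SE 0.30, limma adjusted p = 0.0163).

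Of the 14 oligodendrocyte lineage markers tested, 5 were called lower, against 0.453% of all genes, and the other called member was Lhfpl3. In 10 of the 14, Olig1 among them, every etoposide library was below every DMSO library, against 8.17% of all genes. The median log2 difference of the 14 from the DMSO mean was -1.79, -1.99 and -1.46 in etoposide libraries 1, 2 and 3, against 0.105, 0.198 and -0.019 over all genes tested. Olig1 was at 52.1, 29.9 and 158 FPKM against 425, 290 and 651 FPKM, so that library 3 was nearer to the DMSO libraries than the others were (log2 change -2.76, limma adjusted p = 0.115). Several called genes outside the list also belong to this lineage. Sox8, a close relative of Sox10, was at 2.44, 1.58 and 2.99 FPKM against 23.5, 20.03 and 26.9 FPKM. Nkx2-2, which acts in the differentiation of precursors, was at 0.70, 0.83 and 0.54 FPKM against 7.73, 4.71 and 7.28 FPKM. Bcas1, a marker of newly formed oligodendrocytes, was at 0.07, 0.01 and 0.08 FPKM against 11.9, 15.9 and 6.34 FPKM. In all 3 genes the etoposide values stayed far under the lowest DMSO value. In bulk RNA, fewer cells of a type and less RNA per cell cannot be told apart, here and in what follows.

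**Figure D1:**
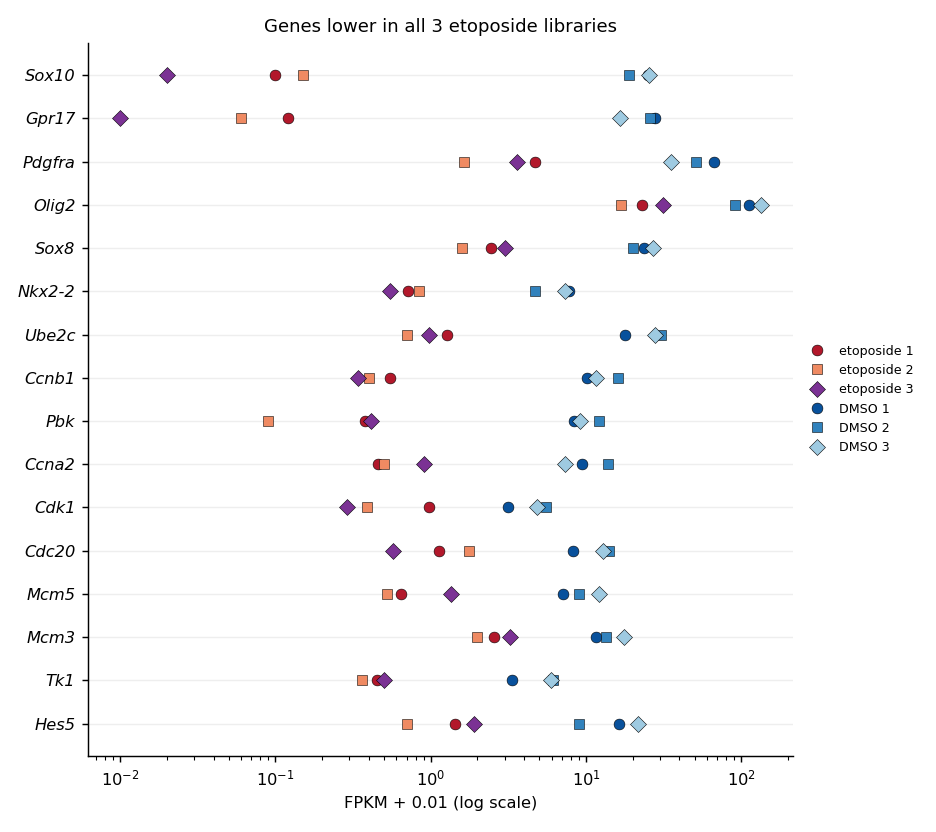
Level of 16 genes of the oligodendrocyte lineage, mitosis, DNA replication and neural progenitors, as FPKM + 0.01 on a log axis. Each point is 1 library. The 3 etoposide libraries lie to the left of the 3 DMSO libraries for every gene drawn, and etoposide library 3 (purple diamonds) lies with etoposide libraries 1 and 2. All 16 were drawn from the 56 genes called lower in these libraries, so the separation follows from their choice.

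Of the 56 genes called lower, 27 were on the mitosis or the DNA replication list. Ube2c, the ubiquitin-conjugating enzyme of the anaphase-promoting complex, was at 1.27, 0.69 and 0.97 FPKM in etoposide libraries 1, 2 and 3 and at 17.9, 30.5 and 27.8 FPKM in DMSO libraries 1, 2 and 3. Ccnb1, the cyclin that drives entry into mitosis, was at 0.54, 0.39 and 0.33 FPKM against 10.2, 16.0 and 11.6 FPKM. Both fell in all 3 etoposide libraries to about the same level, Ube2c by 3.72 (SE 0.30, limma adjusted p = 0.00195) and Ccnb1 by 3.24 (SE 0.28, limma adjusted p = 0.00226) on the log2(FPKM + 1) scale. Cdk1, the kinase that Ccnb1 activates, was at 0.96, 0.38 and 0.28 FPKM against 3.14, 5.55 and 4.82 FPKM (log2 change -1.84, SE 0.30, limma adjusted p = 0.0398). Foxm1, a transcription factor of the late cell cycle, was at 0.92, 0.51 and 0.62 FPKM against 4.02, 5.38 and 4.78 FPKM (log2 change -1.77, SE 0.26, limma adjusted p = 0.0241).

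Of the 57 mitosis genes tested, 21 were called lower with 6 libraries, against 0.453% of all genes. In 48 of the 57 every etoposide library was below every DMSO library, against 8.17% of all genes. The fit without etoposide library 3 called 47 lower (82.5%, against 13.3% of all genes) and 1 higher, the kinetochore gene Spc25. The median log2 difference of the list from the DMSO mean was -1.46, -1.37 and -1.79 in etoposide libraries 1, 2 and 3, so library 3 was the lowest on this list. Plk1, a mitotic kinase, shows this order within 1 gene: it was at 2.79, 3.76 and 0.63 FPKM against 5.47, 8.60 and 8.07 FPKM. Its log2 change was -1.42 with a limma adjusted p of 0.342 in 6 libraries, and -0.96 with a limma adjusted p of 0.0291 without etoposide library 3. Mki67, a common stain for dividing cells, had a mean under 1 FPKM and was not tested. It was listed at 0.16, 0.09 and 0.10 FPKM in the etoposide libraries and at 0.50, 1.44 and 0.52 FPKM in the DMSO libraries.

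DNA replication genes were lower to a lesser degree. Mcm5, a subunit of the replicative helicase, was at 0.63, 0.51 and 1.35 FPKM against 7.11, 9 and 12.2 FPKM (log2 change -2.51, SE 0.31, limma adjusted p = 0.0119). Tk1, the thymidine kinase of S phase, was at 0.44, 0.35 and 0.49 FPKM against 3.31, 6.15 and 5.96 FPKM, and fell by 2.07 on the log2 scale (limma adjusted p = 0.0195). The groups did not overlap in either gene. Of the 46 genes tested, 6 were called lower (Mcm5, Mcm3, Tk1, Lig1, Uhrf1 and Rrm1), against 0.453% of all genes. In 24 every etoposide library was below every DMSO library, against 8.17% of all genes. The list's median differences from the DMSO mean were -0.69, -0.42 and -0.96 in etoposide libraries 1, 2 and 3. When etoposide library 3 was left out, 19 were called lower (41.3%, against 13.3% of all genes). In that fit 2 were called higher (4.35%, against 18.3%), the helicase subunit Mcm7 and the licensing factor Cdt1.

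The 22 called genes on no list held more of both kinds. Pclaf, a partner of the replication clamp, was at 0.21, 0.05 and 1.03 FPKM in etoposide libraries 1, 2 and 3 and at 7.39, 13.9 and 7.69 FPKM in DMSO libraries 1, 2 and 3. Knstrn and Spag5, which act at the mitotic spindle, fell by 1.91 and 1.55 on the log2 scale (limma adjusted p = 0.0242 and 0.0326). C1ql1, a secreted protein of the C1q family, was at 0.45, 0.34 and 0.22 FPKM against 11.8, 7.49 and 13.9 FPKM. Rlbp1, which encodes a retinaldehyde-binding protein, was at 2.17, 1.61 and 1.01 FPKM against 29.3, 17.8 and 33.5 FPKM. The groups were well apart in these genes. Dll3, a Notch ligand, Gsx1 and Sox3, transcription factors of neural progenitors, and Gal3st1, which makes the myelin lipid sulfatide, were also among the 22. Gal3st1 was at 0.24, 0.40 and 0.33 FPKM against 2.77, 2.66 and 2.80 FPKM. The others were Tmem255b, Prkcq, Sapcd2, Tmem100, Stk32a, Gpr37l1, Smoc1, Dmrtb1, G0s2, Rgcc and the lineage genes Sox8, Nkx2-2 and Bcas1. Tmem255b, a transmembrane protein gene, was at 0.08, 0 and 0 FPKM against 9.58, 8.03 and 10.5 FPKM.

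The drug's target in dividing cells, Top2a, is itself 1 of the mitosis genes counted above. It was lower with them, although not past the threshold in 6 libraries. Top2a was at 1.09, 0.98 and 1.04 FPKM in etoposide libraries 1, 2 and 3 and at 12.5, 22.3 and 4.91 FPKM in DMSO libraries 1, 2 and 3, without overlap (log2 change -2.60, limma adjusted p = 0.0631, and 0.00399 without etoposide library 3). Top2b was at 14.4, 11.9 and 37.1 FPKM against 30.2, 38.7 and 11.7 FPKM. Its groups overlapped, with DMSO library 3 at the level of etoposide libraries 1 and 2 (log2 change -0.35, limma adjusted p = 0.729). Of the 18 topoisomerases and genes that remove their DNA adducts, Top2a was the only member called in the fit without etoposide library 3. It made up 5.56% of the list, against 13.3% of all genes called lower.

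The promoters of the mitosis genes are shown because many of them share sequence elements. Genes of late cell cycle are known to be held silent in resting cells through the CHR element, bound by the DREAM complex, often a short distance from CCAAT boxes, which bind NF-Y. The window searched ran from 250 bases before to 50 bases after the transcription start, in RefSeq promoters of mouse build GRCm38.p6, on both strands. The CHR letters were TTTGAA and the CCAAT letters CCAAT, and neighbouring matches can share an end base. The 4 stretches below begin 120 bases before the start and belong to the called mitosis genes with the smallest p that had a RefSeq promoter. The capitals mark CHR and CCAAT letters, or their reverse complements (TTCAAA and ATTGG). Ube2c lies at chr2:164769809-164769978 (plus strand), Ccnb1 at chr13:100786437-100786606 (minus strand), Cdca3, which promotes entry into mitosis, at chr6:124830056-124830225 (plus strand) and Kif22, a chromosome-binding kinesin, at chr7:127042371-127042540 (minus strand).
Ube2c: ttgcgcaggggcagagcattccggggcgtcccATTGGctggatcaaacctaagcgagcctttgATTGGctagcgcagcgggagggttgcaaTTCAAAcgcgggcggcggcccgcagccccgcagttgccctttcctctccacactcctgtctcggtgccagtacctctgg
Ccnb1: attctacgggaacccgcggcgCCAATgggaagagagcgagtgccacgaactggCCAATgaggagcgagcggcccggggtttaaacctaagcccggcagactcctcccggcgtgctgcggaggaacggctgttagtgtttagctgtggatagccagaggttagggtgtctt
Cdca3: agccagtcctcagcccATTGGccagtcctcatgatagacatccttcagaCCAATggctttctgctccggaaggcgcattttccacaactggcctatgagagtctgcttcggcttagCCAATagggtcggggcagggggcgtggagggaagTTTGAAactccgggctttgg
Kif22: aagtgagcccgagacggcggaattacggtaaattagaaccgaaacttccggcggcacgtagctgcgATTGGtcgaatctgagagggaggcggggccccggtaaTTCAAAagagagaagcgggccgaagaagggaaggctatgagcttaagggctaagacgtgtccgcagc

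Ube2c and Kif22 held CCAAT letters upstream of the CHR letters, Cdca3 held 3 runs of CCAAT letters beginning before the start and the CHR letters after it, and Ccnb1 held CCAAT letters but no TTTGAA. Of the 57 mitosis genes tested, 43 had a RefSeq promoter, and 30 of these (69.8%) held TTTGAA, against 13.6% of the 9930 promoters of genes tested. CCAAT was found in 69.8% against 43.1%, and both in 26 promoters (60.5%) against 5.69%. The E2F letters TTTCGCGC or TTTGGCGC were found in 10 of 35 promoters of DNA replication genes (28.6%), against 1.74% of all. Among the 45 promoters of p53 target genes, 13.3% held TTTGAA. A match describes letters in the window and is not evidence of binding.

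Neural progenitor genes split. Hes5, a target of Notch signalling in radial glia, was at 1.43, 0.69 and 1.89 FPKM in etoposide libraries 1, 2 and 3 and at 16.4, 8.97 and 21.5 FPKM in DMSO libraries 1, 2 and 3, and fell by 2.79 on the log2 scale (SE 0.37, limma adjusted p = 0.0163). Of the 15 genes tested, 2 were called lower with 6 libraries, against 0.453% of all genes, Hes5 among them. With etoposide library 3 left out, 4 were lower (26.7%, against 13.3% of all genes), including Hes5, Fabp7 and Slc1a3. In that fit 4 were higher (26.7%, against 18.3%), namely Nes, Vim, Prom1 and Egfr. The intermediate filament gene Vim was at 752, 382 and 186 FPKM against 149, 210 and 214 FPKM, with library 3 inside the DMSO range. Sox2, which neural stem cells and glia share, was at 47.6, 40.7 and 23.9 FPKM against 48.0, 38.0 and 40.4 FPKM and was not called in either fit.

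The p53 targets were high in etoposide libraries 1 and 2 and, in many genes, between these and the DMSO libraries in library 3. Cdkn1a, which encodes the CDK inhibitor p21, was at 461, 295 and 126 FPKM in etoposide libraries 1, 2 and 3 and at 56.2, 61.5 and 93.6 FPKM in DMSO libraries 1, 2 and 3. Every etoposide library was above every DMSO library, and library 3 was the lowest of its group. In 6 libraries the log2 change was 1.89 (SE 0.45, limma adjusted p = 0.210). Without etoposide library 3 it was 2.41 (SE 0.31, limma adjusted p = 0.000722), and the mean of etoposide libraries 1 and 2 was 5.37 times the DMSO mean.

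Among genes of the p53 loop, Mdm2, the ubiquitin ligase of p53, was at 182, 189 and 22.2 FPKM against 17.7, 15.2 and 13.1 FPKM. Library 3 was above the DMSO libraries here, but much nearer to them than to the other etoposide libraries (log2 change without it 3.52, SE 0.24, limma adjusted p = 3.66e-05). Ccng1, a cyclin-like gene and long-known p53 target, was at 375, 261 and 128 FPKM against 74.2, 62.0 and 31.2 FPKM, again without overlap. Trp53 itself, whose product is regulated mainly by protein stability, was at 59.8, 59.2 and 15.4 FPKM against 18.1, 18.6 and 26.9 FPKM. Library 3 was below all DMSO libraries in Trp53, while Trp53 rose by 1.47 (SE 0.26, limma adjusted p = 0.00310) without it.

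Among the death genes of the p53 list, Bbc3, which encodes the BH3-only protein PUMA, was at 99.8, 102 and 17.4 FPKM against 8.64, 9.25 and 11.5 FPKM. Pmaip1, which encodes the BH3-only protein NOXA, was at 31.1, 28.6 and 10.96 FPKM against 3.22, 6.11 and 1.91 FPKM. The death receptor gene Fas was at 13.4, 7.92 and 5.81 FPKM against 1.82, 2.22 and 2.56 FPKM. In these 3 genes library 3 lay between the DMSO libraries and etoposide libraries 1 and 2. Eda2r, a receptor of the tumour necrosis factor family, was at 37.1, 25.1 and 15.4 FPKM against 7.66, 6.17 and 4.83 FPKM, and had a limma adjusted p of 0.0953 with 6 libraries. Bax, the effector that permeabilises mitochondria, was at 315, 228 and 110 FPKM against 104, 95.2 and 166 FPKM, so library 3 was inside the DMSO range.

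Gdf15 and Gadd45a, which p53 and stress pathways both induce, differed widely between the etoposide libraries. The cytokine gene Gdf15 was at 174, 109 and 8.49 FPKM against 7.34, 4.53 and 10.3 FPKM. The growth arrest gene Gadd45a was at 147, 131 and 7.11 FPKM against 4.67, 5.16 and 5.52 FPKM. In etoposide libraries 1 and 2 their means were 19.1 and 27.1 times the DMSO mean, while library 3 was inside the DMSO range for Gdf15 and just above it for Gadd45a.

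Of the 54 p53 targets tested, 0 were called in 6 libraries. When library 3 was left out, 35 were called higher, 64.8% against 18.3% of all genes, and 1 lower, the metabolic gene Tigar. Every etoposide library was above every DMSO library in 29 of the 54, against 7.64% of all genes. In 27 of the 54, library 3 lay between the DMSO libraries and etoposide libraries 1 and 2, against 801 of all 12371 genes. The median differences from the DMSO mean were 1.33, 1.19 and 0.35 in etoposide libraries 1, 2 and 3, against -0.075, -0.055 and 0.123 in DMSO libraries 1, 2 and 3.

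**Figure D2:**
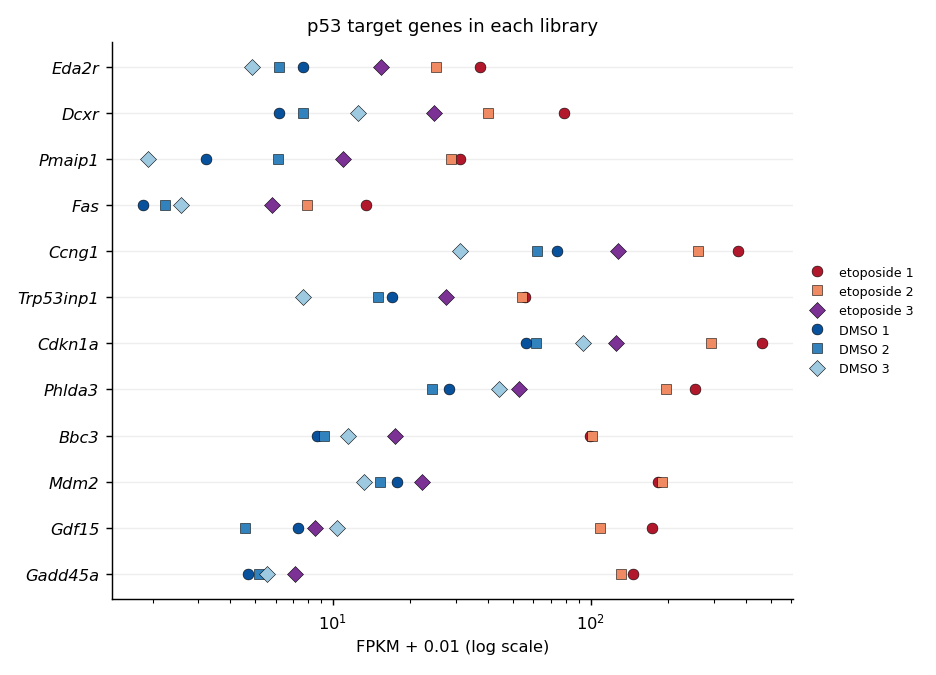
Level of 12 p53 target genes by library, as FPKM + 0.01 on a log axis. Etoposide libraries 1 and 2 lie highest throughout. Etoposide library 3 (purple diamonds) lies above the 3 DMSO libraries for all genes drawn except Gdf15. The 12 genes are a selection, without Bax and Trp53. Of all 54 targets tested, every etoposide library was above every DMSO library in 29, against 7.64% of all genes. Library 3 was inside the DMSO range in 16 of the 54, against 51.2% of all genes.

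Few other genes of the DNA damage response were called, in either direction. Of 40 genes of damage signalling and repair, 1 was called lower in 6 libraries, the DNA ligase gene Lig1, which is also on the replication list. It was at 1.55, 1.92 and 2.27 FPKM against 7.23, 10.3 and 10.6 FPKM (log2 change -1.82, limma adjusted p = 0.0313). Leaving out etoposide library 3, 5 were higher (12.5%, against 18.3% of all genes) and 3 lower (7.5%, against 13.3%). Rad52, a recombination gene, was the higher one with the smallest p, at 17.2, 21.4 and 3.39 FPKM against 3.78, 3.40 and 4.49 FPKM. In 8 of the 40 every etoposide library was below every DMSO library, against 8.17% of all genes, and in 0 above. The medians were 0.133, 0.174 and -0.218 in etoposide libraries 1, 2 and 3.

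Of the markers used for senescence, the CDK inhibitors did not move together. Cdkn2b, which encodes p15, was at 19.6, 15.3 and 5.71 FPKM in etoposide libraries 1, 2 and 3 and at 2.74, 3.45 and 3.35 FPKM in DMSO libraries 1, 2 and 3, without overlap (limma adjusted p = 0.241 in 6 libraries and 0.000577 without etoposide library 3). Cdkn2a, which encodes p16 and p19ARF, was at 5.48, 5.30 and 3.72 FPKM against 3.28, 2.26 and 6.95 FPKM. The groups overlapped, and Cdkn2a had a limma adjusted p of 0.710 in 6 libraries and 0.413 without etoposide library 3. Lmnb1, the nuclear lamina gene whose loss accompanies senescence, was at 10.7, 9.82 and 5.25 FPKM against 20.1, 26.6 and 23.3 FPKM (limma adjusted p = 0.168, and 0.00919 without etoposide library 3). Lmnb1 is also on the mitosis list. Glb1, the gene of lysosomal beta-galactosidase, was at 19.8, 27.5 and 16.7 FPKM against 18.2, 16.7 and 23.8 FPKM, and was not called in either fit. Of the 23 genes of this list, 9 were higher (39.1%, against 18.3% of all genes) and 2 lower (8.7%, against 13.3%) without etoposide library 3.

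Genes of secreted factors were very high in etoposide library 1, high in library 2 and lower in library 3, where some were above the DMSO libraries and others inside their range. The matrix protease gene Mmp3 was at 530, 165 and 2.11 FPKM in etoposide libraries 1, 2 and 3 and at 0.24, 0.54 and 0.06 FPKM in DMSO libraries 1, 2 and 3. Osteopontin (Spp1) was at 1657, 434 and 61.4 FPKM against 25.2, 93.1 and 9.84 FPKM. Library 1 led both genes by a wide margin, and in Spp1 library 3 was inside the DMSO range. The cytokine gene Il6 was at 7.85, 3.08 and 0.27 FPKM against 0, 0.08 and 0 FPKM. Il11, a cytokine of the same family, was at 74.8, 17.9 and 0.35 FPKM against 0.23, 0.11 and 0.08 FPKM. Every etoposide library was above every DMSO library in 17 of the 42 genes tested, against 7.64% of all genes. In 15 of the 42, library 3 lay between the DMSO libraries and etoposide libraries 1 and 2, against 801 of all 12371 genes. Of the 42, 0 were called in 6 libraries. Without etoposide library 3, 29 were called higher (69.0%, against 18.3% of all genes) and 1 lower (2.38%, against 13.3%). The list's medians were 2.35, 0.98 and 0.19 above the DMSO mean in etoposide libraries 1, 2 and 3, and 0.30 above it in DMSO library 2.

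Targets of NF-kappaB followed the same order. Icam1, an adhesion molecule, was at 40.4, 19.2 and 11.7 FPKM against 3.39, 5.79 and 6.06 FPKM. The neutrophil chemokine gene Cxcl1 was at 19.2, 5.30 and 3.18 FPKM against 0.73, 0.80 and 0.99 FPKM. In both, library 3 was above the DMSO libraries and below the other etoposide libraries. Of 17 genes, 9 were higher (52.9%, against 18.3% of all genes) and 1 lower without etoposide library 3. In 7 every etoposide library exceeded every DMSO library, against 7.64% of all genes. Genes of the type I interferon response did not show this. Without etoposide library 3, 2 of 19 were higher (Mx2 and Igtp, 10.5% against 18.3% of all genes) and 6 lower (31.6% against 13.3%). The list's medians were 0.29, -0.40 and -0.03 in etoposide libraries 1, 2 and 3.

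The integrated stress response, in which the kinases of eIF2 alpha raise the translation of ATF4, was high in etoposide libraries 1 and 2 and at the DMSO level in library 3. Ddit3, which encodes CHOP, was at 455, 557 and 39.1 FPKM in etoposide libraries 1, 2 and 3 and at 26.0, 31.6 and 41.6 FPKM in DMSO libraries 1, 2 and 3. Atf3 was at 238, 175 and 5.33 FPKM against 2.08, 9.55 and 1.85 FPKM. Trib3, a pseudokinase that CHOP induces, was at 34.2, 44.7 and 2.07 FPKM against 3.57, 2.91 and 4.90 FPKM. Library 3 was inside the DMSO range for Ddit3 and Atf3 and below it for Trib3. Without it, Ddit3 rose by 3.91 (SE 0.27, limma adjusted p = 3.95e-05). Of the 39 genes tested, which cover both responses, 26 were higher (66.7%, against 18.3% of all genes) and 0 lower in that fit. The medians were 1.17, 1.16 and -0.15 in etoposide libraries 1, 2 and 3.

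Targets of NRF2, the transcription factor of the oxidative stress response, reached high levels. Hmox1, heme oxygenase, was at 1654, 1348 and 67.5 FPKM against 60.8, 59.1 and 107 FPKM. Srxn1, sulfiredoxin, was at 1027, 909 and 39.9 FPKM against 33.3, 34.6 and 42.8 FPKM. Library 3 was inside the DMSO range for both, and their means in etoposide libraries 1 and 2 were 19.8 and 26.2 times the DMSO mean. Of 30 genes tested, 18 were higher and 1 lower without etoposide library 3, with medians of 1.37, 0.86 and -0.03 in etoposide libraries 1, 2 and 3 and 0.31 in DMSO library 3. Among 22 heat shock genes, 5 were higher (22.7%, near the 18.3% of all genes) and 0 lower without etoposide library 3. Hspa1b, the inducible HSP70, was at 47.4, 29.4 and 4.64 FPKM against 7.33, 7.13 and 9.16 FPKM, so library 3 lay below every DMSO library.

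Immediate early genes, which growth factors, activity and stress induce within minutes, were high at 10 days in etoposide libraries 1 and 2. Klf4 was at 58.3, 60.3 and 1.08 FPKM against 0.32, 0.96 and 0.19 FPKM. Fosl1, an AP-1 subunit, was at 44.7, 28.1 and 0.37 FPKM against 0.08, 0.20 and 0.17 FPKM. Of 34 genes tested, 21 were higher (61.8%, against 18.3% of all genes) and 2 lower (5.88%, against 13.3%) without etoposide library 3. In 11 every etoposide library exceeded every DMSO library, against 7.64% of all genes. The list also varied among the DMSO libraries: its median was 0.61 above the DMSO mean in DMSO library 2, which is higher than the 0.525 in etoposide library 3.

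**Figure D3:**
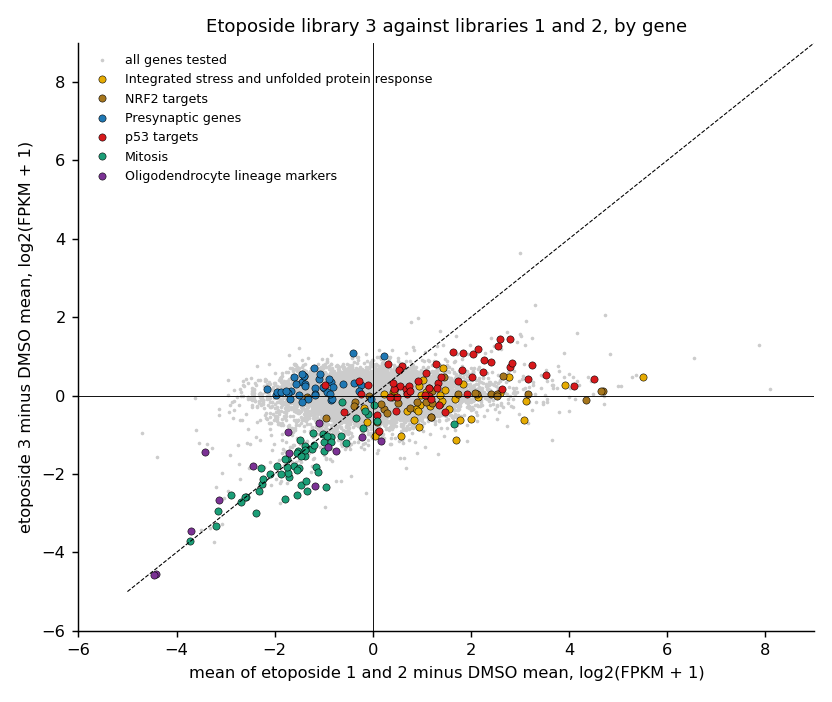
Difference of etoposide library 3 from the DMSO mean (vertical) against the mean difference of etoposide libraries 1 and 2 (horizontal), on the log2(FPKM + 1) scale. Each point is 1 of 12371 genes and the dashed line marks equal differences. Most mitosis and oligodendrocyte lineage genes lie near the dashed line, NRF2, integrated stress and presynaptic genes near the horizontal axis, and many p53 targets between the axis and the line.

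Pan-neuronal markers were lower in etoposide library 1 and less so in library 2, with list medians of -1.39 and -0.33 from the DMSO mean. The median of library 3 was 0.32, above the 0.105, 0.007 and -0.076 of DMSO libraries 1, 2 and 3. In 8 of the 20 markers library 3 was inside the DMSO range. Tubb3, the neuronal beta-tubulin, was at 53.02, 84.1 and 430 FPKM in etoposide libraries 1, 2 and 3 and at 341, 340 and 381 FPKM in DMSO libraries 1, 2 and 3 (log2 change without etoposide library 3 -2.39, SE 0.27, limma adjusted p = 0.000387). Rbfox3, which encodes the nuclear antigen NeuN, was at 9.85, 24.7 and 36.5 FPKM against 45.2, 40.1 and 46.6 FPKM, with every etoposide library below every DMSO library. Camk2a, the kinase of excitatory synapses, was at 58.7, 97.9 and 270 FPKM against 305, 302 and 387 FPKM. These 3 neuronal genes stayed well above 0 in all 6 libraries and were lowest in etoposide library 1. In library 3, Tubb3 was above every DMSO library, and Rbfox3 and Camk2a were below every one. Of 20 pan-neuronal markers, 0 were called in 6 libraries. Without etoposide library 3, 5 were lower (25.0%, against 13.3% of all genes), namely Rbfox3, Tubb3, Mapt, Gap43 and Dcx. Stmn2, a regulator of axonal microtubules, did not pass in that fit and was at 271, 517 and 774 FPKM against 614, 541 and 580 FPKM.

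By list median, synaptic genes were lower in etoposide libraries 1 and 2 and not in library 3, and 0 were called in 6 libraries. Unc13a, which primes synaptic vesicles, was at 6.36, 15.7 and 44.6 FPKM against 42.5, 42.3 and 41.1 FPKM. Nlgn3, a postsynaptic adhesion molecule, was at 3.53, 10.2 and 29.2 FPKM against 34.7, 37.1 and 34.3 FPKM. In both, etoposide library 1 was the lowest and library 2 lay between it and the other libraries. In Nlgn3, library 3 was also below every DMSO library. Every etoposide library was below every DMSO library in 6 of 47 postsynaptic and 1 of 42 presynaptic genes, against 8.17% of all genes. Without etoposide library 3, 25 of 42 presynaptic (59.5%), 27 of 47 postsynaptic (57.4%) and 20 of 36 ion channel genes (55.6%) were lower. Of all genes 13.3% were lower in that fit. In the 3 lists 0 genes were higher, against 18.3% of all genes. The presynaptic medians were -1.65, -0.72 and 0.20 in etoposide libraries 1, 2 and 3. For the postsynaptic list they were -1.69, -0.67 and 0.14, and DMSO library 3 stood at -0.43.

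Of 19 excitatory markers, 10 were lower (52.6%, against 13.3% of all genes) and 1 higher (5.26%, against 18.3%) without etoposide library 3. Neurod6, a transcription factor of cortical projection neurons, was at 17.5, 22.4 and 157 FPKM against 141, 125 and 87.5 FPKM. Of 21 inhibitory markers, 2 were higher, the neuropeptide genes Sst and Npy, and 2 lower, Calb1 among them, in the same fit. These are 9.52% in each direction, below the 18.3% and 13.3% of all genes. Sst, somatostatin, was at 227, 356 and 145 FPKM against 139, 136 and 145 FPKM. Its etoposide libraries 1 and 2 were above all others and library 3 was close to the highest DMSO library.

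Astrocyte genes differed among themselves. Fabp7, a fatty acid binding protein of radial glia and immature astrocytes, was at 120, 60.8 and 618 FPKM in etoposide libraries 1, 2 and 3 and at 2184, 1612 and 1729 FPKM in DMSO libraries 1, 2 and 3. Glul, glutamine synthetase, was at 69.0, 43.0 and 155 FPKM against 375, 270 and 515 FPKM. In both genes library 3 was lower than every DMSO library and higher than the other etoposide libraries (limma adjusted p = 0.116 for Fabp7 and 0.112 for Glul in 6 libraries). Gfap, the astrocytic intermediate filament, was at 173, 101 and 297 FPKM against 366, 284 and 583 FPKM, and the groups overlapped through library 3. Gja1, the main gap junction gene of astrocytes, went the other way, at 378, 287 and 60.8 FPKM against 76.8, 59.0 and 59.8 FPKM. Of 21 astrocyte markers tested, 13 were lower without etoposide library 3 (61.9%, against 13.3% of all genes). In that fit 1 was higher, Gja1 (4.76%, against 18.3%). In 9 of the 21 every etoposide library was below every DMSO library, against 8.17% of all genes. The medians were -1.02, -1.58 and -0.59 in etoposide libraries 1, 2 and 3, so the list was below the DMSO libraries in library 3 as well.

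By list median, markers of microglia and of fibroblasts, meninges and mural cells varied by library and not by group. The microglial complement gene C1qa was at 7.06, 1.18 and 2.37 FPKM in etoposide libraries 1, 2 and 3 and at 1.42, 11.4 and 0.32 FPKM in DMSO libraries 1, 2 and 3. The 13 microglia and macrophage markers had medians of 1.28 above the DMSO mean in etoposide library 1 and 1.39 above it in DMSO library 2, and of -0.91 in DMSO library 3. The 23 markers of fibroblasts, meninges and mural cells were also highest in etoposide library 1 and DMSO library 2, with medians of 0.65 and 0.95. Without etoposide library 3, 1 of the 23 was higher and 1 lower (4.35% each, against 18.3% and 13.3% of all genes). Cd68, a lysosomal protein of macrophages, was the only microglia marker called without etoposide library 3. It was at 97.4, 77.5 and 3.78 FPKM against 3.92, 11.5 and 3.22 FPKM, while Tmem119, a marker of resident microglia, was at 1.71, 0.31 and 1.84 FPKM against 0.95, 1.45 and 0.85 FPKM, and Cx3cr1 was listed between 0 and 0.31 FPKM. Their part in the results on secreted, complement and interferon genes was not tested. Endothelial and ependymal lists had 2 and 5 members tested and 0 called in either fit, and no blood cell marker reached the level for testing.

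Complement genes, named in the series title, showed no difference that passed in 6 libraries, a fit that called 0 of all genes tested higher. C4b, the mouse gene of complement component C4, was at 6.42, 3.44 and 4.73 FPKM in etoposide libraries 1, 2 and 3 and at 5.72, 4.80 and 9.14 FPKM in DMSO libraries 1, 2 and 3. The groups overlapped (log2 change -0.36, SE 0.33, limma adjusted p = 0.568, and 0.446 without etoposide library 3). C3, the central component, was listed at 0.46, 0.31 and 0.06 FPKM against 0.09, 0.14 and 0.17 FPKM, under the level for testing. Of 39 complement genes, 16 were tested. Properdin (Cfp) alone was higher without etoposide library 3, 6.25% of the 16 against 18.3% of all genes. Sez6 and Csmd2, neuronal genes with complement-type domains, were lower in that fit, 12.5% against 13.3%. Cfp was at 7.30, 3.54 and 1.84 FPKM against 1.58, 2.49 and 1.06 FPKM.

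**Figure D4:**
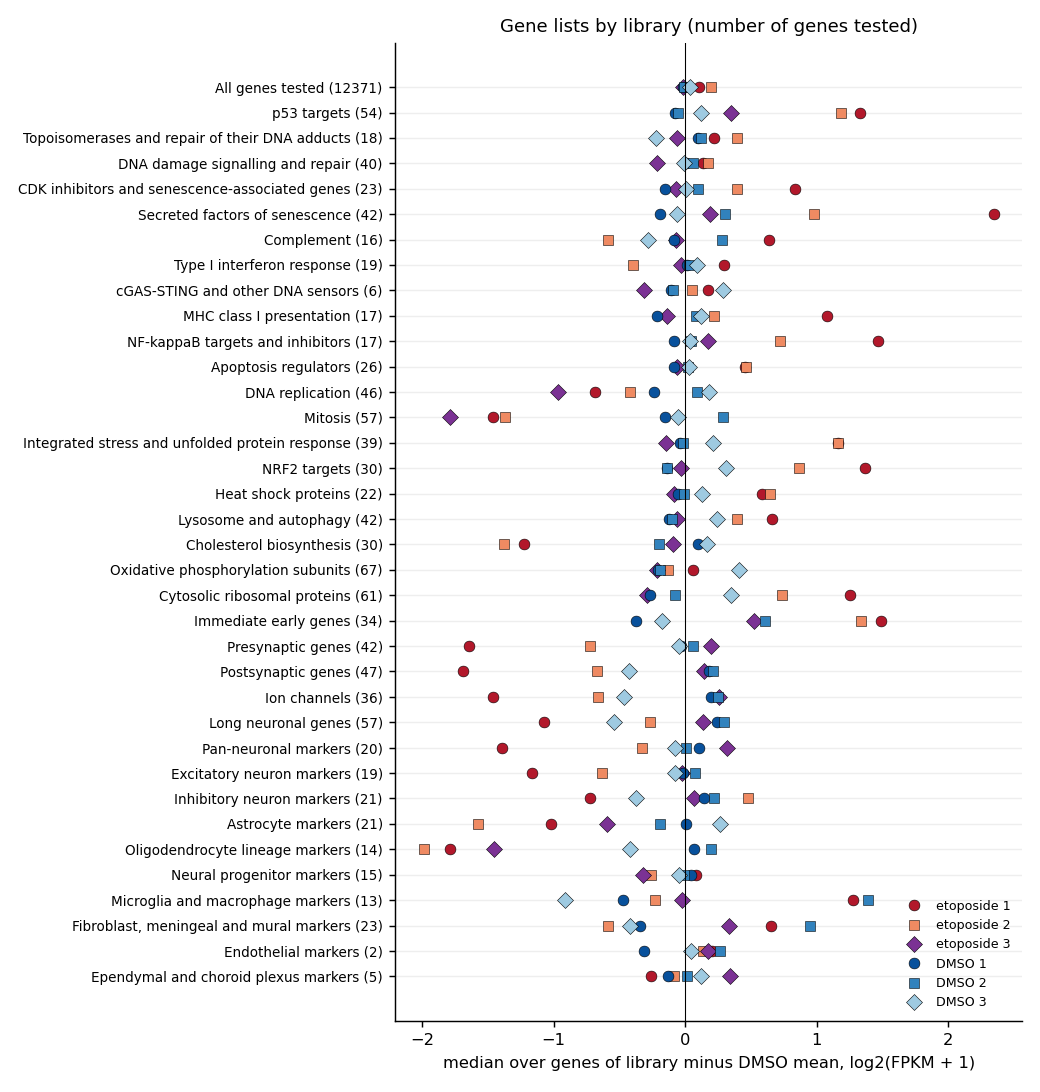
Median over the genes of each list of the difference between a library and the DMSO mean, on the log2(FPKM + 1) scale, with the number of genes tested in brackets. Each point is 1 library. All 3 etoposide libraries lie left of the DMSO libraries for mitosis, DNA replication, astrocyte and oligodendrocyte lineage genes. For most other lists with a difference, etoposide library 3 lies with the DMSO libraries.

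Topoisomerase inhibitors are known to lower the expression of long genes in neurons, and levels were therefore set against gene span. Spans came from GENCODE M21 on GRCm38 for 12114 of the 12371 genes (97.9%). Without etoposide library 3, the median log2 change was 0.16 for 1243 genes under 5 kb and -0.39 for 786 genes over 200 kb. Of the genes over 200 kb, 7.0% were higher and 25.8% lower, against 22.4% and 14.8% of those under 5 kb. Medians of genes over 200 kb were -0.639, -0.145 and 0.133 in etoposide libraries 1, 2 and 3 and 0.162, 0.192 and -0.367 in DMSO libraries 1, 2 and 3. Lower levels of long genes were thus not limited to etoposide libraries, since DMSO library 3 was lower than etoposide library 2. Without etoposide library 3, 13 of 57 long neuronal genes were lower (22.8%, against 13.3% of all genes and 25.8% of those over 200 kb). In that fit 2 were higher (3.51%, against 18.3% and 7.0%). Nrg1, a long gene of a neuronal growth factor, was one of the 2 higher genes, at 13.0, 7.79 and 3.18 FPKM against 3.02, 3.04 and 2.01 FPKM.

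**Figure D5:**
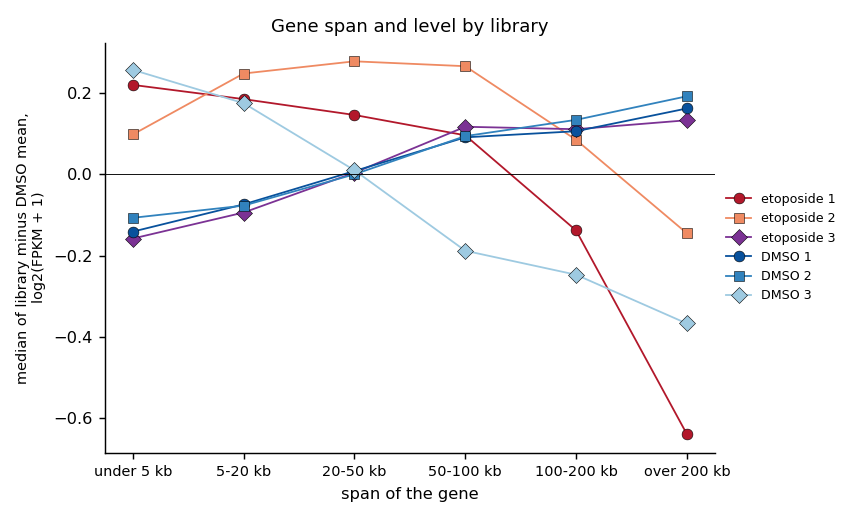
Median difference of each library from the DMSO mean, on the log2(FPKM + 1) scale, for genes in 6 classes of gene span. Lines join the values of 1 library. Etoposide library 1 and DMSO library 3 fall toward long genes, and etoposide library 3 and DMSO libraries 1 and 2 rise slightly.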

How the data were processed

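Oligo-dT beads were used to enrich mRNA for the libraries, per the labels' protocols. The authors deposited FPKM per gene and library, and HISAT, Bowtie2, RSEM and mouse build mm9 appear in the submitters' processing notes, without version or role. The sources used here give no further scaling of the FPKM. The table gives no depth: a rough estimate from the steps of low FPKM values put the libraries between 22600000 and 28200000 fragments, and read counts were not used. Values were analysed as log2(FPKM + 1) in genes averaging 1 FPKM or more. The fit used limma 3.58.1 (R 4.3.3; lmFit followed by eBayes with an intensity trend), two-sided, with Benjamini-Hochberg adjustment over 12371 genes and a threshold of 0.05, and the code was tested on simulated data. Log2 changes on this scale understate the change of low genes, and folds are ratios of mean FPKM. The 6 libraries were grouped by title, 3 against 3.

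The genes, gene lists and comparisons were chosen with earlier results of these data known, and the lists carry no test of their own. Named genes were fixed genes of damage, senescence, complement and cell types, the called genes with the largest change with and without etoposide library 3, up to 4 genes per list by smallest p, and genes at which library 3 stood furthest from the others. The remaining genes given with values (such as Olig1, Cdk1, Fas, Vim, Sox2, Stmn2, C1qa and Tmem119) were chosen after their values were seen. Results on a few genes are not reported here. Alternatives varied the pseudocount, the filter, the scaling, the variance model, a replicate block and the libraries left out. RefSeq promoters and GENCODE spans belong to another build than mm9 and were matched by gene symbol.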

Additional observations from a re-analysis of the deposited data

How the results depend on the processing

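The 56 genes called with 6 libraries (0 higher, 56 lower) became 52 with a pseudocount of 0.1 FPKM, 51 with 5 FPKM, 52 with no filter, 52 after scaling to a common sum, 61 with median-of-ratios scaling and 54 with robust eBayes, all of them lower. A mean of at least 5 FPKM gave 22, all lower, among 9513 genes, of which 30 of the 56 could be tested. Leaving out 1 replicate gave between 4 (without DMSO replicate 3) and 3908 (without etoposide replicate 3) calls, with 0 to 2259 higher and 4 to 1649 lower. The lone higher genes were Gdf1 without DMSO replicate 1 and Fos without DMSO replicate 2; the 1 without etoposide replicate 1 is not reported here. With etoposide library 3 and DMSO library 3 both left out, 4499 genes were called, 2725 higher and 1774 lower. A replicate block gave 12 calls, 0 higher and 12 lower. Same-numbered libraries had correlations of -0.26, -0.17 and -0.15 of their deviations from the group means, no library correlated best with its own number, and the numbers were not taken to pair the samples. Estimated library weights did not converge and are not given. The cause of these changes in count was not tested, beyond the smaller number of libraries or genes. Scaling moved the median log2 change of all genes from 0.093 to -0.0021 (common sum) and 0.0076 (median of ratios). Among printed genes the sign turned only in these, none of them called with 6 libraries. C1qa was at -0.01 with a pseudocount of 5 FPKM, between -0.492 and 1.12 without 1 replicate, and at -0.387 without library 3 of both groups. Tmem119 was at -0.0343 with a pseudocount of 0.1 FPKM, between -0.134 and 0.424 without 1 replicate, and at -0.214 without library 3 of both groups. Sox2 ranged between -0.413 and 0.0689 without 1 replicate and was at 0.043 without library 3 of both groups. Without 1 replicate, Mcm7 ranged between -0.0965 and 1.34, Cdkn2a between -0.0142 and 0.629, Glb1 between -0.0852 and 0.256 and Stmn2 between -0.626 and 0.13. The tables give no counts, so values near 0 FPKM have no interval.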

Other observations

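Cholesterol biosynthesis genes, most of which the transcription factor SREBP2 controls, were lower in etoposide libraries 1 and 2. Of 30 genes tested, 0 were called with 6 libraries. In limma without etoposide library 3, 19 were lower (63.3%, against 13.3% of all genes) and 0 higher. Nsdhl, a sterol dehydrogenase, was at 18.2, 19.0 and 99.3 FPKM in etoposide libraries 1, 2 and 3 and at 99.1, 77.98 and 111 FPKM in DMSO libraries 1, 2 and 3. Mvk, mevalonate kinase, was at 14.9, 12.4 and 68.7 FPKM against 70.8, 57.6 and 87.9 FPKM. Library 3 was inside the DMSO range in both genes. The medians of the list were -1.23, -1.38 and -0.09 in etoposide libraries 1, 2 and 3 relative to the DMSO mean. Npc1, which exports cholesterol from lysosomes, was at 83.3, 62.0 and 10.4 FPKM against 20.2, 13.1 and 22.9 FPKM. Of 42 lysosome and autophagy genes, 11 were higher (26.2%, against 18.3% of all genes) and 0 lower without etoposide library 3.

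Genes of cytosolic ribosomal proteins were higher in etoposide libraries 1 and 2. Without etoposide library 3, 40 of 61 were higher (65.6%, against 18.3% of all genes) and 0 lower. Rpl23 was at 892, 600 and 260 FPKM against 287, 306 and 359 FPKM. Their medians were 1.26, 0.74 and -0.29 in etoposide libraries 1, 2 and 3 and 0.35 in DMSO library 3. Short transcripts as a group were also higher in etoposide library 1 and DMSO library 3: genes whose longest transcript is under 1 kb had medians of 0.393 and 0.316 there. Subunits of oxidative phosphorylation had medians of 0.058 in etoposide library 1 and 0.408 in DMSO library 3. Of the 67, 0 were higher and 4 lower (5.97%, against 13.3% of all genes) without etoposide library 3. Of 17 genes of MHC class I presentation, 0 were called with 6 libraries, and 5 were higher (29.4%, against 18.3% of all genes) and 0 lower without etoposide library 3. B2m, its light chain, was at 308, 164 and 107 FPKM against 107, 116 and 111 FPKM.

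Some genes set etoposide library 3 apart from all 5 other libraries. Lims2 was at 3.24, 6.97 and 0.14 FPKM in etoposide libraries 1, 2 and 3 and between 4.82 and 6.05 FPKM in the DMSO libraries. Lcat, a cholesterol-esterifying enzyme, was at 21.2, 13.1 and 3.85 FPKM against 33.8, 38.3 and 30.2 FPKM. Cks2, a subunit of cyclin-dependent kinases, was at 13.8, 9.88 and 3.16 FPKM against 13.3, 17.4 and 18.5 FPKM. In the upward direction, Lsp1 was at 1.6, 2.65 and 5.32 FPKM against 1.36, 2.29 and 1.94 FPKM. These are values of 1 library and carry no test.

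Hmga1b was listed at 412, 207 and 0.22 FPKM in etoposide libraries 1, 2 and 3 and at 0.04, 0.09 and 0.11 FPKM in DMSO libraries 1, 2 and 3. It is a near copy of Hmga1, a chromatin gene of proliferating and senescent cells, and the sources used here do not say how fragments were divided between the 2 genes. Hmga1 itself was at 240, 169 and 31.7 FPKM against 33.5, 37.9 and 42.6 FPKM, and both values are therefore uncertain. The coagulation inhibitor gene Tfpi2 was at 202, 52.2 and 1.18 FPKM against 0.08, 0.19 and 0.08 FPKM, and the urokinase gene Plau at 107, 50.4 and 3.93 FPKM against 1.49, 6.04 and 1.55 FPKM. Thrsp, a lipogenic gene, was at 10.4, 5.44 and 114 FPKM against 201, 157 and 343 FPKM, with every etoposide library below every DMSO library.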
